A study of Mus musculus with 6 samples.

Results

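The GIMAP genes (GTPases of the immunity-associated proteins) encode small GTP-binding proteins that sit next to each other in 1 cluster on mouse chromosome 6. The genes described here are Gimap1, Gimap3, Gimap4, Gimap5, Gimap6, Gimap8 and Gimap9, and their members are all probe sets that the platform annotation gives to these 7 symbols. Of 18194 genes named on the array these are 7, and they made up 9 of its 45101 probe sets, with a pair each for Gimap4 and Gimap6. They were chosen because Gimap4 was among the transcripts most enriched in Flk1-positive cells over wild-type (WT) embryos, so differences in that comparison, and in the comparison of Flk1-positive cells with Flk1 knockout (KO) embryos, are given as a description without a test. Flk1 KO against WT embryos did not enter the choice and was tested. It shares its WT arrays with the comparison behind the choice.

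Flk1 is the receptor for vascular endothelial growth factor encoded by Kdr, and mouse embryos without it fail to form blood vessels and blood islands. RNA came from ICR mouse embryos aged 8.5 dpc with 3 to 4 somites, a stage before circulation begins. There were 3 groups of 2 Affymetrix arrays each: cells labelled Flk1 positive, WT embryos, and Flk1 KO embryos, the embryos being taken without their extraembryonic tissues. The design text also names Flk1+/GFP embryos, a line with a fluorescent reporter at the Flk1 locus, while the genotype label of the cells reads Flk1 positive cell only. How the cells were selected, how many embryos made up a sample, and whether the 2 samples of a group came from separate embryos are not given in the sources used here, so p-values cover only the spread between the 2 samples, and this may be technical. In whole embryos, fewer cells of a type and less RNA per cell cannot be told apart.

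GIMAP proteins share a GTPase domain that is related to that of the septins, and several are anchored in membranes of the endoplasmic reticulum, the lysosome or the mitochondrion. They are known mainly from lymphocytes, where loss of Gimap5 or Gimap1 causes a shortage of mature T or B cells. Family members have been reported to bind proteins of the Bcl2 family, which control cell death, and Gimap6 binds Gabarapl2, a protein of autophagy.

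In the RefSeq gene order the cluster runs Gimap8, Gimap9, Gimap4, Gimap6, Gimap7, Gimap1, Gimap5, Gimap3, with Rarres2, Repin1 and Zfp775 before it and Tmem176b, Tmem176a and Aoc1 after it. Upstream sequences of 4 members are shown because these genes cover the patterns on the arrays: Gimap4 and Gimap1 had the order Flk1-positive cells, WT, Flk1 KO from high to low, Gimap6 was above background in Flk1-positive cells only, and Gimap3 was similar in all groups. Each is the 250 bases before the annotated start, 5′ to 3′ on the gene's strand, from RefSeq on GRCm38.p6, and the capitals mark GGAA on either strand (TTCC on the strand shown), the core of the sites bound by ETS factors, a family that includes Erg. The windows lie at chr6:48684328-48684577 on the plus strand (Gimap4), chr6:48738797-48739046 on the plus strand (Gimap1), chr6:48708245-48708494 on the minus strand (Gimap6) and chr6:48770852-48771101 on the minus strand (Gimap3).
Gimap4: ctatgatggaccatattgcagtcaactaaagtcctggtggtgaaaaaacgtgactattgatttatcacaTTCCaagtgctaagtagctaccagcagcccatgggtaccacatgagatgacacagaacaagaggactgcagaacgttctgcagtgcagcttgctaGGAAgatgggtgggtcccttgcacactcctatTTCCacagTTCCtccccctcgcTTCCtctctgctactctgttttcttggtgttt
Gimap1: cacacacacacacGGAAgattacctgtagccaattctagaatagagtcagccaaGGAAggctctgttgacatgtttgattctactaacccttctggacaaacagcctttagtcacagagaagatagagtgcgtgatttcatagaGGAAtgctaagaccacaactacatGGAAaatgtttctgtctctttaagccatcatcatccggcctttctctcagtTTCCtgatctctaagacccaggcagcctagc
Gimap6: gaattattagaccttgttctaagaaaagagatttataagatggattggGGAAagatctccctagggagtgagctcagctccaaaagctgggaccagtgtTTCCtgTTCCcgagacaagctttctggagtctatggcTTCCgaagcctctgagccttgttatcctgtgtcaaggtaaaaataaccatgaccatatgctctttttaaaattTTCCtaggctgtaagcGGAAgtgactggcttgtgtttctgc
Gimap3: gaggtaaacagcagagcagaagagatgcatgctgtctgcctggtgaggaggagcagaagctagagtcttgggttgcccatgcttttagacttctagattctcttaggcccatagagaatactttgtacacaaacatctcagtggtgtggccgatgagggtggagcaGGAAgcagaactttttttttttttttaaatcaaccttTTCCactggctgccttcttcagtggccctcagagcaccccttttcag

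The Gimap4 and Gimap1 windows held 5 GGAA cores each, that of Gimap6 held 6 and that of Gimap3 held 2. GGAA is a common word: 93.4% of 32851 RefSeq windows of this length held at least 1, with a median of 3, while 18% held 5 or more and 8.69% held 6 or more. Among the genes not shown, Gimap5 had 7 cores (3.82% of windows had at least as many), Gimap9 had 3, Gimap7 had 2, and the 2 annotated starts of Gimap8 had 0 and 3. The longer word GGAAGT was found at 2 places in the Gimap5 window and once in that of Gimap6, against 19.7% of all windows, and it contains the GGAA core. GATAA, bound by GATA factors, was in the Gimap4 and Gimap6 windows and in 22.6% of all windows. The word TATAAA was found upstream of Gimap6 alone among the 9 Gimap windows, and in 12.4% of all windows. CANNTG, the E-box word, was in 7 of the 9 windows (66.2% of all), GGGCGG in those of Gimap7 and Gimap9 (32.7%) and ACAAT, bound by SOX factors, in that of Gimap9 (27.7%), each counted on both strands. CpG pairs numbered 1 to 8 per Gimap window, with 8 for Gimap9 and 1 for Gimap3, against a median of 6. These matches describe the letters in the windows only.

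The deposited values are linear probe-set signals, which the arrays' trimmed means show to be on 1 scale. Probe sets differ in how strongly they bind, so levels are compared between samples and not between genes. A signal of 57.4, or 6.30 on the scale log2(signal + 21.61), was taken as background, the level that 95% of probe sets for olfactory and vomeronasal receptors stayed below. Between 54.3% and 57.9% of probe sets lay above it on each array, and paired arrays of a group correlated at 0.9801 to 0.9851. Kdr checked the labels: the cells read 3309.1 and 3328.3, WT 543.9 and 545.5, and Flk1 KO embryos 29.5 and 63.8. Its loss in the knockout was at least 6.9-fold (limma adjusted p = 0.0459), although the position of its probes relative to the targeted exons is not known here. Of 3 controls for RNA quality, 2 differed between the cells and the embryos: the log2 difference between 3′ and 5′ probe sets was 1.26 to 1.35 for the transferrin receptor in the cells and 0.94 to 1.05 in embryos, while for Actb it was 0.26 to 0.29 in the cells and 0.47 to 0.58 in embryos. For Gapdh it was similar on all arrays, -0.37 to -0.32. The part of RNA quality in the differences of Flk1-positive cells from embryos was not tested.

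Gimap4, the member whose enrichment led to the choice, was far above both embryo groups in Flk1-positive cells. Its probe set 1424375_s_at read 5130.5 and 4885.4 there, 123.7 and 157.1 in WT, and 34.6 and 9.8 in the knockout. The second, 1424374_at, read 2101.1 and 2249.4 in the cells, 137.7 and 149.1 in WT, and 17.5 and 24.1 in Flk1 KO embryos. In both, the cells were highest, WT embryos lay between and above background, and both Flk1 KO arrays were below background, with no overlap between any groups. The ± values here and below are limma's moderated SE, which draws on all 3 groups of 2 arrays and on the other probe sets. They are thus not the spread of the 2 groups compared alone. The log2 difference of Flk1-positive cells from WT was 4.96 ± 0.30, or 31.2-fold, for 1424375_s_at and 3.73 ± 0.14, or 13.3-fold, for 1424374_at. The suffix of the first marks probes that match more than 1 transcript. Among 33778 probe sets tested these differences stood 10th and 81st from the top, the values for which the family was chosen. Against Flk1 KO embryos the cells were at least 63.7-fold and 27.8-fold higher.

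Gimap1, which lymphocytes need to survive to maturity, followed the same order at 1449988_at. The cells had signals of 805.1 and 782.8, with 85.9 and 113.6 in WT and 24.5 and 18.9 in Flk1 KO embryos. Again no arrays of different groups overlapped, and only the Flk1 KO arrays were below background. The cells were 2.76 ± 0.17 above WT on the log2 scale, or 6.77-fold, and at least 10.3-fold above Flk1 KO embryos.

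Gimap8, a member with several GTPase domains in 1 protein, read 758.3 and 749.5 in the cells, 72.0 and 43.2 in WT, and 24.6 and 13.1 in Flk1 KO embryos at 1456061_at. Only 1 of the 2 WT arrays exceeded background, so the cells were at least 9.02-fold above WT and at least 9.82-fold above Flk1 KO embryos. Its neighbour Gimap9 (1437756_at) read 529.1 and 545.7 in the cells, 98.0 and 60.5 in WT, and 24.9 and 97.1 in Flk1 KO embryos. The cells stood 5.64-fold above WT (log2 difference 2.50 ± 0.46), while WT and Flk1 KO arrays overlapped.

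Gimap6, the member that binds Gabarapl2, was above background in Flk1-positive cells alone at both of its probe sets. At 1427891_at the signals were 705.2 and 790.1 in the cells, 9.4 and 26.7 in WT, and 47.9 and 3.2 in Flk1 KO embryos. At 1456762_at they were 176.2 and 148.2 in the cells, 20.2 and 1.7 in WT, and 8.7 and 3.2 in Flk1 KO embryos. All 4 embryo arrays lay below background and the 2 embryo groups overlapped at both, so the cells were at least 9.72-fold and at least 2.32-fold above WT. Gimap5 (1444181_at), whose loss depletes T cells, read 95.1 and 79.1 in the cells, 1.8 and 19.7 in WT, and 17.5 and 14.2 in Flk1 KO embryos, at least 1.37-fold higher in the cells than in WT. These 3 probe sets passed the filter on low values only through the Flk1-positive arrays, so they had to differ there.

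Gimap3 stood apart from the other members. This gene, which influences the inheritance of mitochondrial DNA variants in mice, read 66.7 and 99.3 in the cells, 58.5 and 64.9 in WT, and 82.4 and 34.1 in Flk1 KO embryos at 1449220_at. The values are close to background and both Flk1-positive readings exceeded WT by little, 1.24-fold (log2 difference 0.31 ± 0.33), with Flk1 KO arrays on either side of WT. Gimap7, which is no member, was below background on every array at both of its probe sets, with signals from 2.9 to 48.7.

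**Figure D1:**
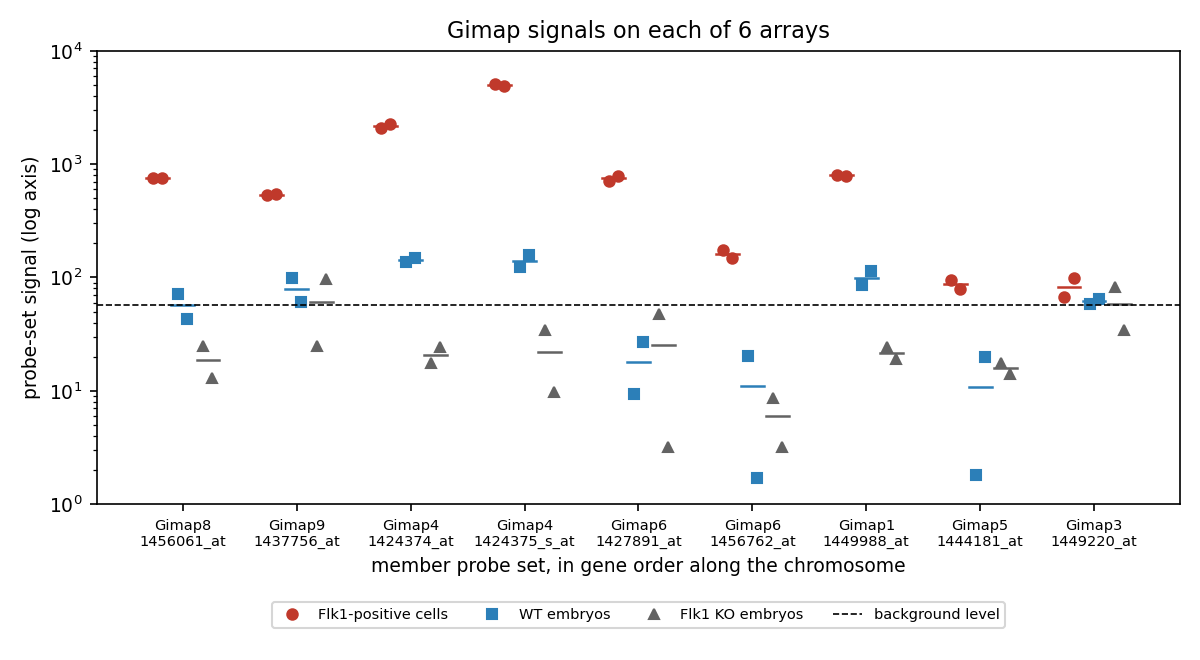
Signal of the 9 Gimap probe sets on each of 6 arrays, on a log axis and in gene order along the chromosome. Circles are Flk1-positive cells, squares WT embryos and triangles Flk1 KO embryos, short bars are group means and the dashed line is the background level of 57.4. Both Gimap4 probe sets and Gimap1 show 3 separate levels, both Gimap6 probe sets have every embryo array below the line, and Gimap3 lies near the line in all groups.

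As a description and not a test of the members, Flk1-positive cells lay past the threshold above WT embryos at 8 of the 9 member probe sets and at 11.6% of all probe sets, and above Flk1 KO embryos at 8 of 9 and at 13.8%. Nothing is read from these counts: the members were chosen on the first comparison, the second shares its Flk1-positive arrays, and Gimap5 and both Gimap6 probe sets entered only through those arrays. The median member difference from WT was 2.76, against -0.04 over all probe sets tested.

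The WT embryo contains Flk1-positive cells among all its other cells. As a share of the signal in Flk1-positive cells, WT embryos had 2.8% and 6.59% for the Gimap4 probe sets, 12.6% for Gimap1, 14.7% for Gimap9, 74.4% for Gimap3 and 16.4% for Kdr. Over 39 endothelial genes with a mean above background in both groups this share ran from 0.619% (Lyve1) through a median of 9.34% to 184% (Podxl, the only endothelial gene lower in the cells). Lyve1 is near the limit, with WT signals of 65 and 54.6 on either side of the background level of 57.4. Endothelial genes below background in WT, such as Clec14a, have no such share and are left out of this range. Signals are not exactly proportional to RNA, so the shares describe the arrays. How the cells were selected is not given, so whether they match the Flk1-positive cells within these WT embryos is not known.

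The knockout was set against WT embryos to ask which transcripts differ in amount in embryos without the receptor. Fewer cells and less RNA per cell cannot be told apart in this comparison. Gimap4 was lower in the knockout: 1424374_at differed by -1.96 ± 0.14 on the log2 scale (limma adjusted p = 0.0427 over all probe sets) and, since the Flk1 KO arrays were below background, was at least 2.09-fold lower. The other Gimap4 probe set differed by nearly as much, -1.94 ± 0.30 or at least 2.04-fold, but did not pass the test (limma adjusted p = 0.177). Gimap1 differed by -1.48 ± 0.17, at least 1.53-fold, and did not pass either (limma adjusted p = 0.0952). Of the 33778 probe sets these 3 ranked 34th (1424374_at), 37th (1424375_s_at) and 86th (Gimap1) from the lowest difference. The single call is fragile: it ended when any 1 of the 6 arrays was left out, as did every call of the comparison. The loss was thus not particular to Gimap4, whose difference stayed between -2.08 and -1.85. Each omission also lowers the 3 residual degrees of freedom, and the part of this in the loss was not tested. Leaving out a Flk1-positive array gives the same fit as the 2 embryo groups alone (limma adjusted p = 0.164). The call also ended under other settings, among them quantile normalization (limma adjusted p = 0.0529) and no filter (0.0811), while other settings brought 1424375_s_at or Gimap1 past the threshold.

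Of the remaining members, Gimap8 differed by -0.96 ± 0.23 (limma adjusted p = 0.384) with both group means below background, though its Flk1 KO arrays were both under its WT arrays. Gimap9 differed by -0.42 ± 0.46 (limma adjusted p = 0.866) and Gimap3 by -0.13 ± 0.33 (0.949). Both Gimap6 probe sets and Gimap5 were below background in both embryo groups, where no difference could be measured. Their fitted values were 0.10 ± 0.50, -0.19 ± 0.30 and 0.27 ± 0.28. The sign of the fitted value turned on leaving out 1 array for Gimap9, Gimap3, Gimap5 and both Gimap6 probe sets.

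In all, 1 of 9 member probe sets was called lower and 0 higher in Flk1 KO embryos by limma, against 0.0799% of all probe sets lower (27) and 0 higher. At an unadjusted p under 0.05, 4 members were lower and 0 higher, and over all probe sets 1997 were lower and 837 higher. The arrays of Flk1 KO lay wholly below those of WT for 4 of 9 members (both Gimap4 probe sets, Gimap1 and Gimap8) and for 21.4% of all probe sets. The member median was -0.42, or -0.08 with means below background set to that level, against -0.02 and 0.00 over all probe sets.

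**Figure D2:**
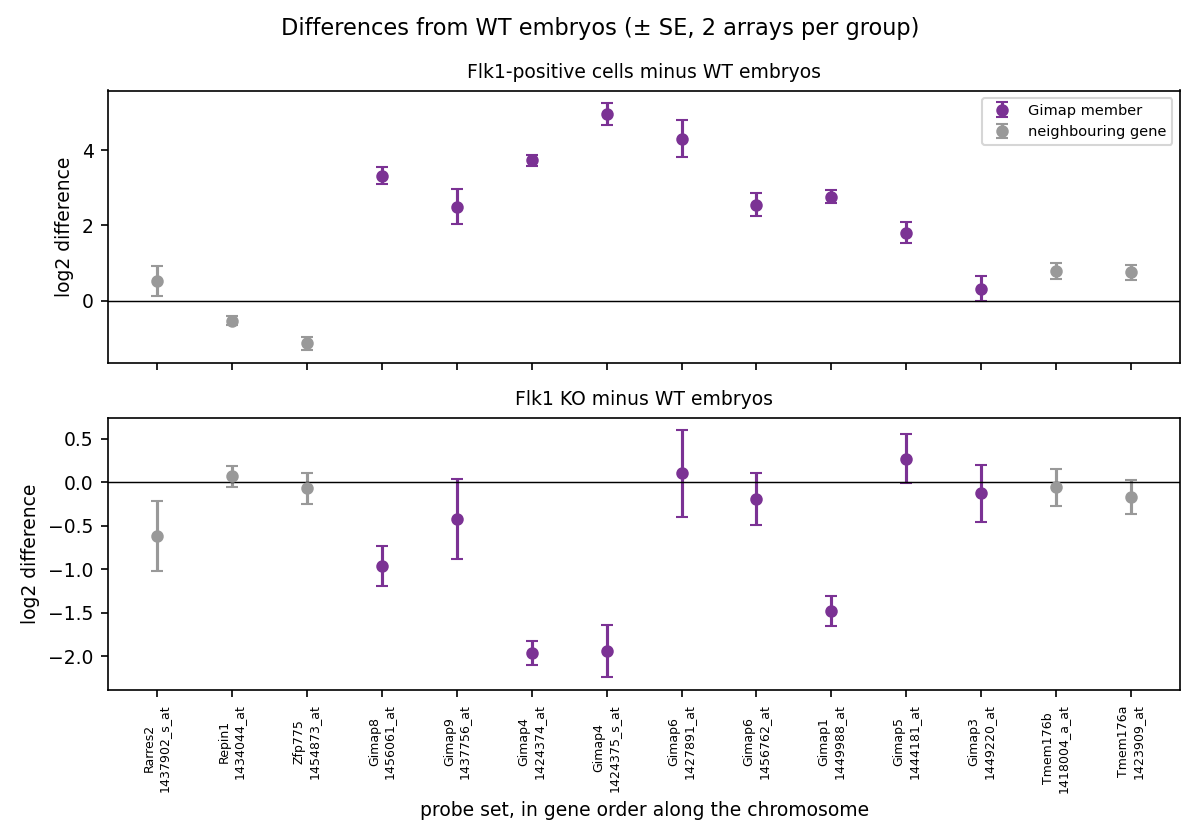
Log2 differences (± limma's moderated SE from the fit of all 3 groups, 2 arrays per group) from WT embryos for Flk1-positive cells (upper panel) and Flk1 KO embryos (lower panel). Gimap members are in purple and neighbouring genes in grey, in gene order. In the upper panel the members run from 0.31 (Gimap3) to 4.96 (Gimap4), and in the lower panel both Gimap4 probe sets and Gimap1 lie lowest, at -1.96, -1.94 and -1.48.

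The genes beside the cluster were measured on the same arrays. Tmem176b and Tmem176a, which encode paired membrane proteins of immune cells and adjoin Gimap3, were more abundant in Flk1-positive cells. Tmem176b had 1090.9 and 874.9 in the cells against 557.5 and 559.2 in WT (0.78 ± 0.21, limma adjusted p = 0.0436). Tmem176a had 419 and 433.7 against 238.2 and 250.6 (0.75 ± 0.19, limma adjusted p = 0.0378). On the other side of the cluster both called genes were lower in the cells. Zfp775, a zinc finger gene, had 60.6 and 53.6 against 160.8 and 141.9, at least 2.14-fold lower (limma adjusted p = 0.00879). Repin1, a zinc finger gene named for replication, had 636.5 and 628.6 against 930.4 and 931.5 (-0.54 ± 0.12, limma adjusted p = 0.0268). Rarres2, which encodes the chemoattractant chemerin, did not pass (0.51 ± 0.40, limma adjusted p = 0.401), and Aoc1 was too dim to be tested. In these neighbours 2 of 5 genes were thus called higher and 2 lower, beside 12.5% and 18% of all genes. Leaving out single arrays left between 1 and 4 calls.

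Against WT, Flk1 KO embryos showed no call among the 5 tested neighbours (limma, 0 of 5 also at an unadjusted p under 0.05; 0.14% of all genes were called lower). Tmem176b (-0.06 ± 0.21), Tmem176a (-0.17 ± 0.19), Zfp775 (-0.07 ± 0.18) and Repin1 (0.07 ± 0.12) had values near 0, and Rarres2 differed by -0.62 ± 0.40 (limma adjusted p = 0.769). For the pair of Tmem176 genes and Zfp775 the sign turned when single arrays were left out, and for Tmem176b and Zfp775 also with median centring.

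Genes whose products GIMAP proteins are reported to bind, or resemble, were followed as lists. In the Bcl2 family 2 of 14 tested genes were called higher and 3 lower in Flk1-positive cells than in WT. These shares are near those of all genes (12.5% higher and 18% lower), and the median was 0.01 against -0.09 over all genes. Bcl2, which blocks cell death, had 597.6 and 434.3 in the cells against 277 and 297.1 (0.78 ± 0.18, limma adjusted p = 0.0297), and Bik, which promotes it, differed by 1.01 ± 0.22 (limma adjusted p = 0.0255). The death-promoting genes Pmaip1 (-1.83 ± 0.23, limma adjusted p = 0.00444) and Bmf (-1.44 ± 0.12, limma adjusted p = 0.00123) were lower. The remaining gene called lower was Bcl2l2 (-0.46 ± 0.13, limma adjusted p = 0.0482). Calls of Bcl2 and Bik were each lost on leaving out any of 5 of the 6 arrays, and those of Pmaip1 and Bmf were not (limma adjusted p at most 0.0352 and 0.0151). In Flk1 KO against WT embryos 0 of 14 were called, and the widest values were Bad (0.47 ± 0.31) and Bcl2l2 (-0.44 ± 0.13). At an unadjusted limma p under 0.05, 1 of the 14 was lower, beside 549 of all 14949 genes.

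Of 5 GABARAP and LC3 genes, the ubiquitin-like proteins of autophagy, limma called 3 higher and 0 lower in the cells than in WT. Over all genes 12.5% were called higher and 18% lower. The list's median difference was 0.52 against -0.09 over all genes, and its lowest was 0.19. Gabarapl2, the reported partner of Gimap6, had 2411.4 and 2349.4 in the cells against 1562.2 and 1465.6 in WT (0.65 ± 0.15, limma adjusted p = 0.0321), a call lost without any 1 of the Flk1-positive or WT arrays. Gabarapl1 had 2694 and 2698.6 against 781.2 and 800.4 (1.74 ± 0.20, limma adjusted p = 0.00313), a call kept in each of those cases. Flk1 KO embryos showed 0 of 5 called by limma, 0 also at an unadjusted p under 0.05, with Gabarapl2 at 0.20 ± 0.15 and Gabarapl1 at 0.14 ± 0.20. Among 10 septins, filament-forming GTPases, limma called 1 higher in the cells and 2 lower, again near the 12.5% and 18% of all genes. Septin2 was higher (0.74 ± 0.19, limma adjusted p = 0.0418). Septin3 (-2.31 ± 0.27, limma adjusted p = 0.00339) and Septin6 (-0.70 ± 0.17, limma adjusted p = 0.0337) were lower. The call of Septin2 was lost when any 1 of the 6 arrays was left out, and that of Septin6 when any 1 Flk1-positive or WT array was. In Flk1 KO embryos 0 of 10 septins were called, and 0 at an unadjusted p under 0.05, with the widest value in Septin1 (0.32 ± 0.29).

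GIMAP genes are best known from lymphocytes, so lymphocyte markers were set beside them. Of 24 listed genes 21 were on the array and 10 were bright enough to test, with 0 called by limma in either comparison. Over all 14949 genes tested, 12.5% were called higher and 18% lower in Flk1-positive cells, and 0.14% lower in Flk1 KO embryos. At an unadjusted limma p under 0.05, 1 lymphocyte gene was higher in the cells, beside 2626 of all genes. In Flk1 KO embryos 1 was lower at that level, beside 549 of all genes. The T cell receptor chain Cd3e was below background everywhere, with 12.9 and 7.1 in the cells, 6.5 and 8.7 in WT, and 12.8 and 10.8 in Flk1 KO embryos. The list's summed signal was 1120 to 1179 in the cells, 934 to 972.6 in WT and 729.9 to 747.5 in Flk1 KO embryos, with 5, 3 and 4 of its genes above background. Cd8a gave similar signals in all groups (151.5 and 123.3 in the cells, 152 and 122 in WT, 173 and 141.1 in Flk1 KO). The B cell receptor component Cd79b had the widest difference of the cells from WT (109 and 78.8 against 30.6 and 35.5, 1.07 ± 0.30, limma adjusted p = 0.0518), and 7 other settings or omissions brought it past the threshold. Zap70, a T cell kinase, had the widest difference in the knockout (-1.38 ± 0.67, limma adjusted p = 0.672), with 40.9 and 256.2 in Flk1 KO against 319 and 323.9 in WT.

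Other blood genes moved with the cells. Ptprc, the pan-leukocyte antigen CD45, read 64.9 and 83.3 in the cells, 16.7 and 7.6 in WT and 44.4 and 5.4 in Flk1 KO embryos (cells against WT 1.51 ± 0.43, limma adjusted p = 0.0544). Of 20 tested genes of haematopoietic, myeloid and megakaryocytic cells, 13 were called higher in the cells than in WT and 0 lower (12.5% and 18% of all genes). They were led by Plek, a platelet and leukocyte signalling protein (at least 18.3-fold, limma adjusted p = 0.000388), and the transcription factor Lyl1 (3.76 ± 0.40, limma adjusted p = 0.00249). In Flk1 KO embryos 0 of these 20 were called by limma, with Lyl1 at -2.03 ± 0.40 (limma adjusted p = 0.277). At an unadjusted limma p under 0.05, 4 were lower and 1 higher, beside 549 and 391 of all 14949 genes. The list's summed signal was 13850 to 13920 in the cells, 2572 to 2659 in WT and 2000 to 2382 in Flk1 KO embryos, with 19, 13 and 10 of 21 above background.

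Primitive erythroid genes were also called higher in Flk1-positive cells, 9 of 10 tested beside 12.5% of all genes. Among them were the embryonic globins Hba-x (6.44 ± 0.57, limma adjusted p = 0.00136) and Hbb-bh1 (6.35 ± 0.34, limma adjusted p = 0.000452), whose probes may also bind related globins. The list's summed signal was 46660 to 48250 in the cells, 981.1 to 1732 in WT and 338.6 to 509.9 in Flk1 KO embryos, with 10, 6 and 2 of 13 above background. The embryos were taken without extraembryonic tissues, and how the cells were selected is not given. The part of this in the differences of the cells from embryos was not tested. In Flk1 KO embryos 1 of 10 was called lower, beside 0.14% of all genes. This was Tal1, a transcription factor of early blood and endothelium, at least 4.7-fold lower (limma adjusted p = 0.0391). Tal1 had 34.1 and 29.5 in Flk1 KO embryos against 414.3 and 295 in WT. The part of any of these blood cell genes in the Gimap differences was not tested.

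The endothelial list had the lowest median of the lists in the knockout. In Flk1-positive cells 40 of 41 genes were higher than in WT and 1 lower (12.5% and 18% of all genes), with a median of 3.38. Lyve1, a hyaluronan receptor (6.90 ± 0.14), and the lectin Clec14a (at least 40.7-fold) led (limma adjusted p = 0.000388 each), and Podxl, an adhesion-modulating surface protein that epithelia also make, was lower (-0.88 ± 0.12, limma adjusted p = 0.00557). In Flk1 KO embryos 13 of 41 were called lower and 0 higher, beside 0.14% of all genes lower. Esam, an adhesion molecule of endothelial junctions, was at least 5.92-fold lower (35.6 and 49.2 against 423.4 and 469.8, limma adjusted p = 0.0224). Erg, an ETS transcription factor, was at least 2.25-fold lower (6.8 and 2.3 against 161.1 and 151.8, limma adjusted p = 0.02). All 13 calls were lost when any 1 array was left out, as was every call of the comparison. The list's median in the knockout was -1.49, or -1.20 with means below background set to that level, and its summed signal was 162200 to 164900 in the cells, 18140 to 19300 in WT and 9359 to 9884 in Flk1 KO embryos.

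The defining endothelial markers had the same order of groups as Gimap4. Pecam1, a junction molecule, had 2680.5 and 2634.2 in the cells, 173.4 and 110.2 in WT and 49.9 and 45.2 in Flk1 KO embryos. Cdh5, the cadherin of endothelial junctions, had 3487.1 and 3192.4 in the cells, 183.2 and 113.1 in WT, and 30.2 and 30.8 in Flk1 KO embryos. Neither passed the test in the knockout (-1.21 ± 0.21 and -1.67 ± 0.22, limma adjusted p = 0.219 and 0.132), and no groups overlapped for either gene. The part of a changed share of endothelial cells in the Gimap values was not tested.

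**Figure D3:**
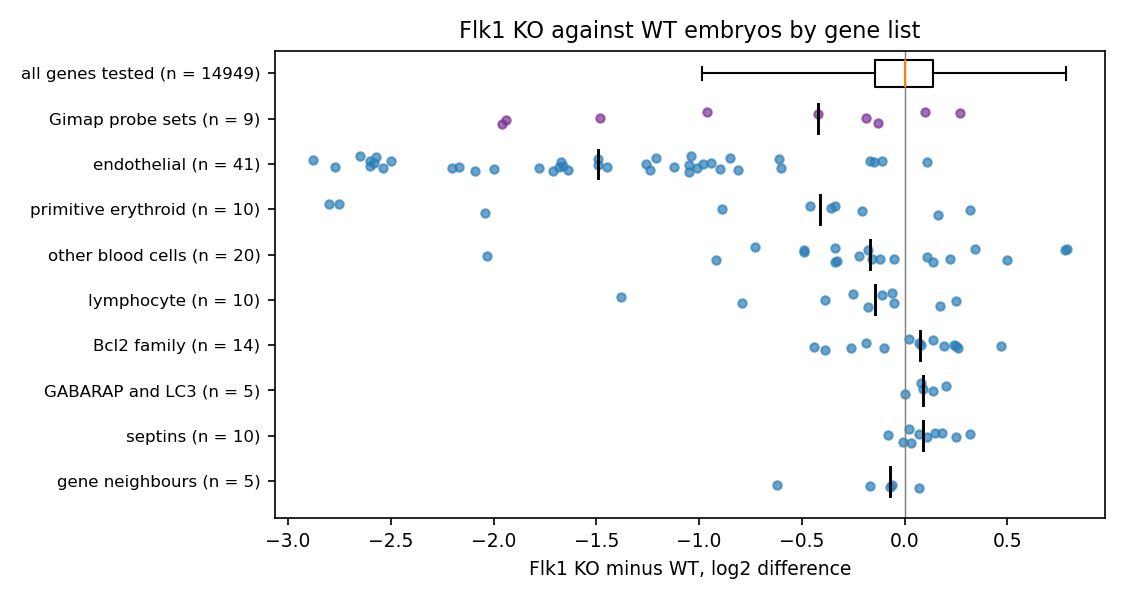
Log2 differences of Flk1 KO from WT embryos for the Gimap probe sets (purple), each gene list (blue) and all genes tested (box with quartiles and whiskers at the 1st and 99th percentiles). Points are single probe sets or genes and black bars medians; the endothelial list has the lowest median at -1.49, the Gimap probe sets -0.42, and the Bcl2 family, GABARAP and LC3 genes and septins 0.08 to 0.09.

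To place the profiles among other genes, each gene's brightest probe set was centred on its own mean over the 6 arrays. Its root mean square (RMS) difference on the log2 scale from Gimap4 1424375_s_at and Gimap1 was then taken. This covered 13956 genes, with clone names left out. The genes nearest to Gimap4 were Mrc1, the mannose receptor (RMS 0.29), Icam2, an adhesion molecule of endothelium (0.36), Ctla2b, a protease inhibitor-like protein (0.39), Cd93, a surface glycoprotein of endothelium and myeloid cells (0.40), and Tie1, an endothelial receptor tyrosine kinase (0.43). Mrc1 had 4639.2 and 4717.2 in the cells, 133.9 and 140.4 in WT and 35.9 and 29.1 in Flk1 KO embryos. Nearest to Gimap1 were the sphingosine 1-phosphate receptor gene S1pr1 (0.07), the matrix protein gene Mmrn2 (0.17), the GTPase regulator Arap3 (0.21), the VEGF receptor Flt1 (0.23) and the endothelial phosphatase Ptprb (0.23). S1pr1 had 1389.9 and 1476.6 in the cells, 149 and 213.6 in WT and 57.5 and 46.4 in Flk1 KO embryos. The other members were further off: from Gimap4, Gimap8 was at 1.12 (77th of the 13956 genes), Gimap6 at 1.17, Gimap1 at 1.18, Gimap9 at 1.78, Gimap5 at 2.22 and Gimap3 at 2.73. From Gimap1, Gimap8 was at 0.36 (28th), Gimap9 at 0.77, Gimap6 at 0.84, Gimap5 at 1.13, Gimap4 at 1.18 and Gimap3 at 1.59. These distances rest on 6 arrays in 3 groups and are a description. They grow with the size of the differences too, so members with the same order of groups, such as Gimap4 and Gimap1, can lie apart. They reuse the Flk1-positive and WT values for which Gimap4 was chosen, so genes near Gimap4 had to be high in Flk1-positive cells.

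**Figure D4:**
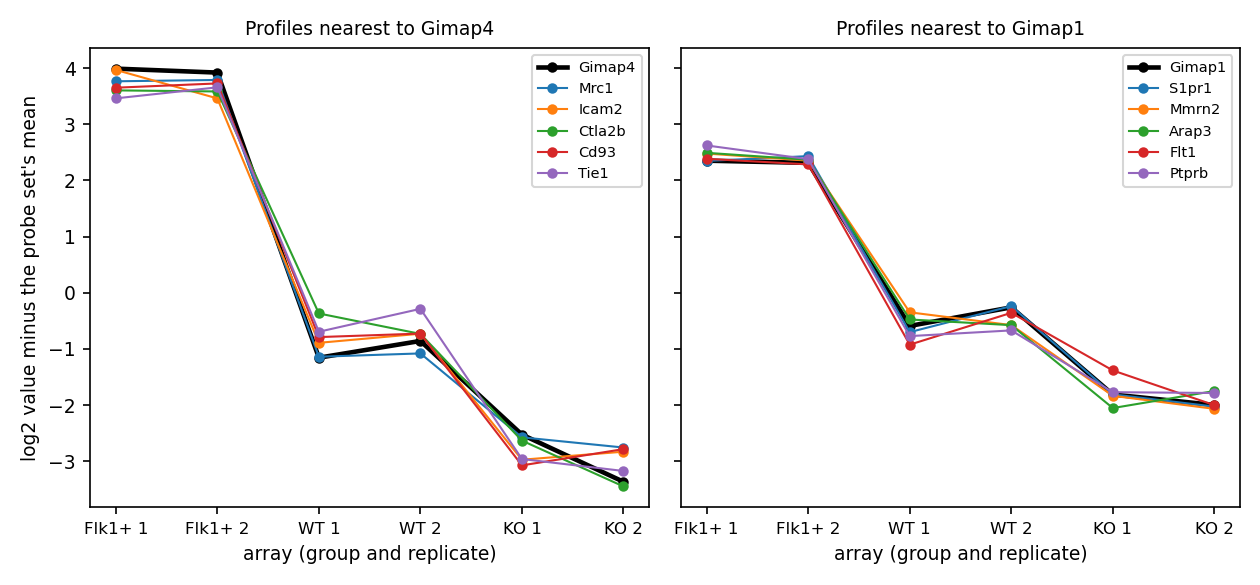
Log2 values on the 6 arrays, each minus the probe set's own mean, for Gimap4 (left, black) and Gimap1 (right, black) with the 5 genes nearest to each. The genes were picked as the nearest, so the lines stay close together on both panels. RMS differences were 0.29 to 0.43 from Gimap4 and 0.07 to 0.23 from Gimap1.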

How the data were processed

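Total RNA was labelled with biotin and hybridised to Affymetrix arrays, per the labels' protocols. The authors deposited 1 linear signal per probe set and array. Its trimmed mean (2% cut at each end) was 500 on all 6 arrays and the lowest value was 1, so values had been scaled to 1 level, with a floor, when deposited; the sources used here do not name the program for that step. GeneSpring is named in the design text. The 6 array medians spanned 0.147 in log2 units.

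The platform annotation gave 1 symbol to 34958 probe sets, several to 932 and none to 9211. Signals were taken as log2(signal + 21.61), the pseudocount being the 25th percentile of all values. Tests covered 33778 probe sets (14949 genes): the 64 controls were dropped, as was any probe set with a mean log2 value under 5.44, the 25th percentile of these means. A linear model with a mean per group was fitted in R 4.3.3 with limma 3.58.1 to the 6 arrays together (functions lmFit and eBayes, 3 residual and 2.49 prior degrees of freedom). Tests were two-sided, adjusted by Benjamini-Hochberg over every probe set tested, at 0.05. The procedure was tested on simulated data. Changes were put only into probe sets brighter on average than any Gimap probe set was in embryos. The simulation therefore does not show how well changes are recovered at those lower levels. For genes outside the cluster the probe set of highest mean log2 value stands for the gene. Background was set from 80 probe sets for receptors of smell and pheromones (olfactory and vomeronasal), at their 95th percentile; where a group mean lay below it, the fold is a bound, "at least". Plots used matplotlib 3.10.9 (Python 3.11.15). Each value has 2 arrays per group, which limits precision.

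The members, gene lists and tests were chosen with earlier results of these data known. Named genes followed a rule: all Gimap probe sets, Kdr, the 3 genes on each side of the cluster, up to 2 higher and 2 lower members of each list past the test or, where none passed, up to 2 by size, the markers Cd3e, Ptprc, Pecam1 and Cdh5, and the 5 nearest profiles. Cd8a was added after its values were seen. One further marker of the rule is not reported here. Same-numbered arrays did not deviate together (r = 0.00801 to 0.029), so replicate numbers were not used as pairs. Alternatives were the pseudocount, the filter, the normalization, 1 probe set per gene, a trended and robust prior, a fit of the 2 groups alone, the replicate number as a block, the background percentile and leaving out single arrays.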

Additional observations from a re-analysis of the deposited data

How the results depend on the processing

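Calls in Flk1 KO minus WT did not hold. The calls reported there were 1 member, 27 probe sets in all, 13 endothelial genes and 1 erythroid gene. In that order they numbered 0, 0, 0 and 0 with the pseudocount at the 10th percentile or with only the 2 groups compared, 2, 74, 21 and 2 with it at the median, 0, 7, 5 and 0 without a filter, 2, 93, 23 and 2 with the filter at the 50th percentile, and 3, 134, 30 and 2 with an intensity trend, where 1 gene of other blood cells was called too. Quantile normalization gave 0 members, 12 probe sets and 7 endothelial genes, median centring 0, 14 and 8, and 1 probe set per gene 0 members. This last count says nothing of the reported call, because 1424375_s_at stood for Gimap4 there and 1424374_at was not fitted. With the replicate number as a block they were 0, 0, 0 and 0, and 1 septin was called in Flk1-positive cells minus WT in place of 3; Gimap4 1424374_at then had a limma adjusted p of 0.118. Leaving out any 1 array ended every call of Flk1 KO minus WT, and each omission lowers the 3 residual degrees of freedom. In Flk1-positive cells minus WT, 1 lymphocyte gene (0 reported) was called with the pseudocount at the median, median centring, the intensity trend, only 2 groups or 1 probe set per gene. Called septins (3 reported) numbered 1 without a filter, 5 with the stricter filter and 5 with the intensity trend, which called 8 Bcl2 family genes (5 reported). Called neighbours (4 reported) numbered 2 with the lower pseudocount and 2 without a filter. One probe set per gene gave 5266 calls in all (8803 reported), and 5508 against Flk1 KO (9868 reported). That setting tested 14949 probe sets in place of 33778, so its lower counts do not show that calls were lost. Leaving out 1 array gave 4352 to 8933 calls in all, 7 to 8 members, 0 to 1 lymphocyte, 2 to 4 Bcl2 family, 1 to 3 GABARAP and LC3, 1 to 2 septin and 1 to 4 neighbour genes, and 5971 to 7829 calls and 7 to 8 members against Flk1 KO. Signs turned only for values that had not passed. With other settings these were, in Flk1 KO minus WT, Gimap6 1427891_at (-0.02 with the lower pseudocount) and, with median centring, Tmem176b (0.05), Zfp775 (0.03) and Septin2 (0.09). Leaving out 1 array moved Flk1 KO minus WT across 0 for Gimap6 1427891_at (-0.64 to 0.85, with -0.22 without WT replicate 1), Gimap6 1456762_at (-0.61 to 0.24), Gimap5 (-0.14 to 0.68), Gimap9 (-1.09 to 0.26), Gimap3 (-0.58 to 0.32), Tmem176b (-0.29 to 0.18), Tmem176a (-0.42 to 0.07), Zfp775 (-0.27 to 0.13, with 0.01 without WT replicate 1), Ptprc (-0.31 to 0.98), Bik (-0.10 to 0.26), Gabarapl1 (-0.12 to 0.41), Septin2 (-0.21 to 0.18, with 0.04 without Flk1 KO replicate 2), Septin3 (-0.33 to 0.47), Septin6 (-0.01 to 0.36) and Cd5 (-0.80 to 0.03), and Flk1-positive cells minus WT for Rarres2 (-0.11 to 1.13). With background at the 99th percentile, the bounds for Flk1 KO were 1.79-fold and 1.75-fold for Gimap4 and 1.31-fold for Gimap1. The cause of these changes was not tested. Embryo signals below background limit what can be said of Gimap5, Gimap6 and Gimap8 there.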
